A study of Arabidopsis thaliana with 7 samples.

Results

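Root hairs are tubular outgrowths of root epidermal cells that enlarge the surface for uptake of water and nutrients. After bHLH transcription factors have committed a cell to form a hair, ROP GTPases and phosphoinositides mark the growing tip, an NADPH oxidase and receptor kinases control growth there, and the wall is loosened by expansins and xyloglucan endotransglucosylase/hydrolases (XTHs) while structural glycoproteins and peroxidases strengthen it. The genes described here act in these later steps. They are 32 listed genes among the 32833 gene identifiers of the count tables, chosen by name from the expansin, LRX, PRP, XTH, ROOT HAIR SPECIFIC (RHS), MORPHOGENESIS OF ROOT HAIR (MRH), ROOT HAIR DEFECTIVE (RHD) and ROP genes and their partners. All 32 were found and all passed the filter on low counts. This list and the other gene lists below were chosen with earlier results of these data known.

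RNA from roots of Col-0 wild-type plants was compared with that of cepd, a quadruple mutant in the Col-0 background made by genome editing, in which the glutaredoxin genes ROXY6, ROXY7, ROXY8 and ROXY9 (the CEPD genes) are mutated. Seedlings of both genotypes spent 7 d on full nutrition (FN) plates, where nitrogen came from KNO3 at 2 mM and from NH4NO3 and glutamine at 1 mM each. They then spent 2 d on low nitrogen (LN) plates, with KNO3 at 0.1 mM and NH4NO3 at 50 µM. Each library held the roots of 50 seedlings from 5 plates, pooled, from 1 of 4 independent experiments. Libraries of Col-0 replicates 1, 3 and 4 and of cepd replicates 1 to 4 were used, so that every value below is from LN roots, with n = 3 for Col-0 and n = 4 for cepd.

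The Col-0 libraries held 37292558 to 38474492 counts and the cepd libraries 30758339 to 46611731. Transcripts of the mutated genes do not check the labels, since editing can disrupt a gene and leave its transcript in place. ROXY6 had 5.23 to 5.96 CPM (counts scaled to library size and TMM factor) in Col-0 and 2.79 to 4.48 CPM in cepd, whereas ROXY7, ROXY8 and ROXY9 overlapped between the genotypes. These were low in roots, so their overlap says little. In Col-0 and cepd, ROXY8 had 1.14 to 2.40 and 1.18 to 2.57 CPM, and ROXY7 had 0.211 to 0.747 and 0.161 to 0.796 CPM. ROXY9 had 0 to 0.0271 CPM in Col-0 and 0 to 0.0213 CPM in cepd. Col-0 replicate 1 stood apart, with log-scale correlations to the cepd libraries of 0.980 to 0.983 against 0.966 to 0.975 for the other Col-0 libraries. At an adjusted p under 0.05, 1710 of 20600 genes tested were lower in cepd and 1986 were higher. These counts became 2591 and 2597 without Col-0 replicate 1, 998 and 1167 without Col-0 replicate 3, and 1127 and 1346 without cepd replicate 2. With the replicate number as a block they were 2727 and 2866.

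In cepd roots, 21 of the 32 genes (65.6%) were lower than in Col-0 at an adjusted p under 0.05, against 8.3% of all genes tested. Since the genes were chosen with earlier results of these data known, the contrasts with all genes are not independent of the data. Their log2 fold changes (cepd over Col-0) ran from -0.41 for the kinase gene RHS3 to -3.10 for the permease family gene RHS15. None of the 32 was higher, against 9.64% of all genes. By unadjusted p under 0.05, 1 was higher in edgeR, and at the adjusted threshold both DESeq2 and limma-voom found 0. The log2 fold change was below -1 in 10 of the 21, against 2.45% of all genes. In 23 of the 32 genes every cepd library was below every Col-0 library, as it was in 13.8% of all genes. The median log2 fold change was -0.78 over the 32 genes and 0.01 over all genes tested. The summed level of the 32 genes was 2302 to 2407 CPM in Col-0 and 1461 to 1529 CPM in cepd, without overlap. In whole roots, fewer hair cells and less RNA per hair cell cannot be told apart.

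The division by role was uneven. All 6 wall loosening and XTH genes were lower, as were 6 of 7 structural wall and cell surface genes and 3 of 4 genes of cytoskeleton, transport and other functions. Of the oxidase and peroxidase genes 2 of 3 were lower, of the phosphoinositide enzyme genes 2 of 4, and of the receptor and protein kinase genes 2 of 5. None of the 3 ROP module genes was called by edgeR, DESeq2 or limma-voom, and 1 of them was higher at an unadjusted p under 0.05 in edgeR. Over all genes tested in edgeR, 8.3% were lower and 9.64% were higher. No call among 3 genes is near those shares and does not set the ROP module apart from genes at large. These differences between roles were not tested. Whole roots were used, so RNA of these genes from cells other than hair cells was not measured apart.

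**Figure D1:**
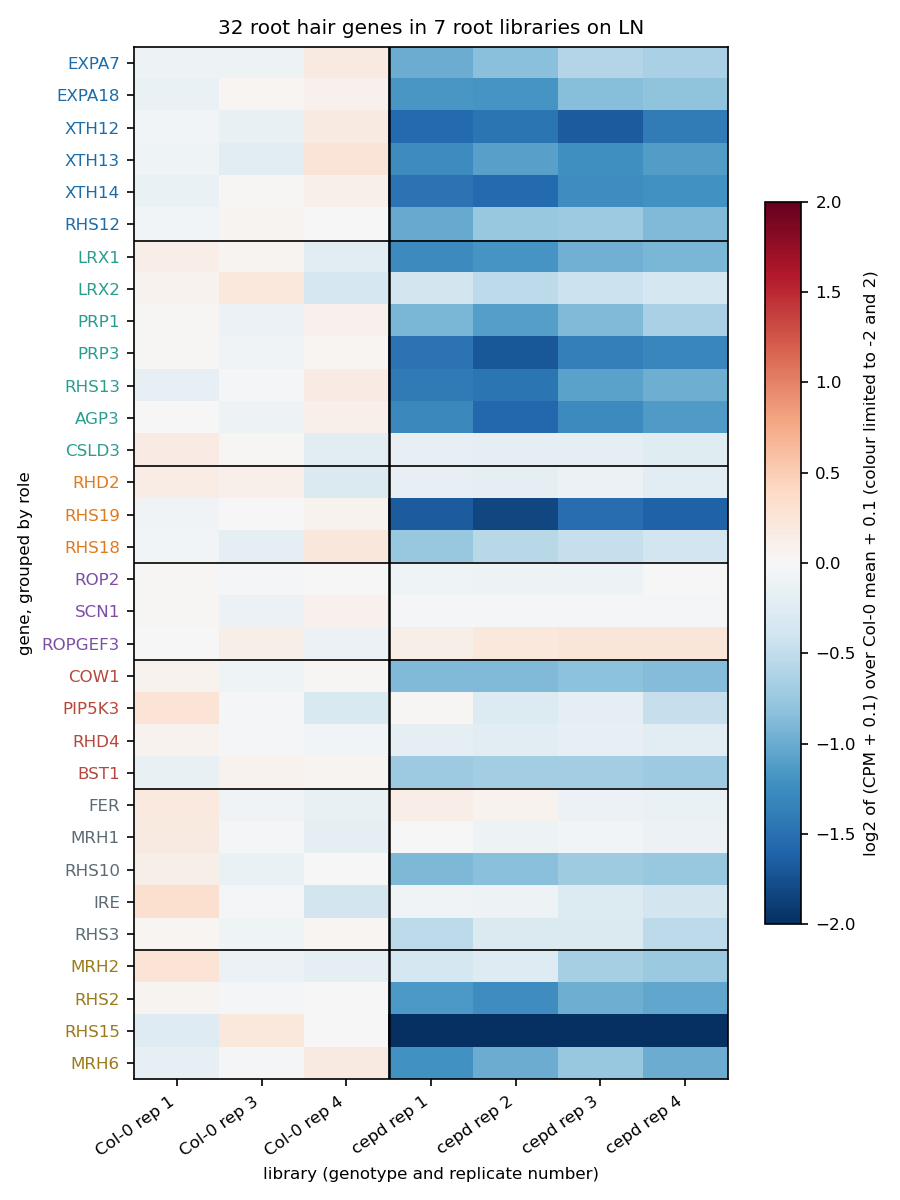
Level of each of the 32 root hair genes (rows, grouped by role) in each of the 7 libraries (columns), as the log2 of CPM plus 0.1 over the Col-0 mean, with blue below and red above that mean. The colour scale ends at -2 and 2, which RHS15 exceeds in all 4 cepd libraries. Most wall genes are blue across all 4 cepd libraries, whereas the ROP module and FER are close to the Col-0 mean.

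Hair cell genes of Arabidopsis often carry a root hair element in their promoters, which the RSL class of bHLH factors is known to bind. The sequences below show its match upstream of each listed gene that holds one. The RHS genes are known from a search for hair genes that used this element, and EXPA7 and EXPA18 from work on the element itself, so the choice of the genes fixes part of the shares below. Its core is TGNNNNCACG or TGNNNNNCACG, and the full root hair element adds flanking base preferences to that core, so every full match holds a core match. Both were sought on both strands of the 1000 bases before each gene start in the RefSeq annotation of TAIR10.1. A full match was present upstream of 15 of the 32 genes (46.9%), against 613 of 20549 nuclear genes tested (2.98%). It was present upstream of 13 of the 21 lower genes (61.9%) and of 2 of the 11 genes that did not pass (18.2%), which were ROP2 and ROPGEF3. Without the 8 RHS genes and the 2 expansin genes, all of them lower, a full match was present upstream of 7 of 22 genes (31.8%), 5 of 11 lower genes (45.5%) and 2 of the 11 others. Each sequence is read 5′ to 3′ on the strand of the gene, with the full match in capitals and 20 bases on either side. The match of LRX1, LRX2, PRP1, PRP3, RHS3 and RHS15 lies on the opposite strand, so the capitals there read as its reverse complement, and that of ROP2 reads on both strands.
EXPA7, chr1:4276407-4276463, gene on the + strand: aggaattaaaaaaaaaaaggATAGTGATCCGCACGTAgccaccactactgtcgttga
EXPA18, chr1:23331503-23331558, gene on the + strand: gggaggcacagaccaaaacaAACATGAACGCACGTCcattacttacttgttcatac
LRX1, chr1:4069879-4069934, gene on the + strand: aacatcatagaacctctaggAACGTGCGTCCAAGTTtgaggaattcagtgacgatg
LRX2, chr1:23112656-23112712, gene on the + strand: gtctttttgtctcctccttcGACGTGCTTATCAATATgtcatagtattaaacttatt
PRP1, chr1:20504752-20504808, gene on the + strand: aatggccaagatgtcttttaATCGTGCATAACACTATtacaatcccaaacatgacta
PRP3, chr3:23182535-23182591, gene on the + strand: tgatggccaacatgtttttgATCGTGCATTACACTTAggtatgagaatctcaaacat
RHS13, chr4:993213-993269, gene on the - strand: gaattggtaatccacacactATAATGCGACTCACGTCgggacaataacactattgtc
RHS19, chr5:26894338-26894394, gene on the + strand: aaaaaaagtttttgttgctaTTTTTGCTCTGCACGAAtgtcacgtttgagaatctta
RHS18, chr5:7426198-7426253, gene on the + strand: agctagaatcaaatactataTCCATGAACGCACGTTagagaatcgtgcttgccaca
RHS3, chr1:5615683-5615738, gene on the + strand: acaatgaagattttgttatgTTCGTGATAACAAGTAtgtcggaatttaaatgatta
RHS2, chr1:4419263-4419319, gene on the + strand: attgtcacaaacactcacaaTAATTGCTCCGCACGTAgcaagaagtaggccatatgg
RHS15, chr4:12920616-12920671, gene on the + strand: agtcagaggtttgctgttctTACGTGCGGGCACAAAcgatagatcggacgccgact
MRH6, chr2:1132027-1132083, gene on the + strand: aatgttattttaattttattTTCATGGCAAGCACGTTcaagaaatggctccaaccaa
ROP2, chr1:6965899-6965954, gene on the + strand: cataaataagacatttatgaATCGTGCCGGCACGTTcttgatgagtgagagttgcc
ROPGEF3, chr4:214377-214433, gene on the - strand: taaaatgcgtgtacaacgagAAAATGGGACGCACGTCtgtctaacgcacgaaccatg

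The matches of EXPA7, EXPA18, LRX1 and MRH6 began 78, 40, 93 and 73 bases before the gene start, close to it, and those of RHS18, RHS3 and RHS15 at 92, 105 and 106 bases. Those of PRP1 and PRP3, which encode related proline-rich wall proteins, began at 129 and 167 bases. RHS13, LRX2, RHS19 and RHS2 had theirs at 210, 257, 420 and 431 bases. The matches of ROPGEF3 and ROP2, which did not pass, were at 716 and 923 bases. In a window of 300 bases, chosen after the data were seen, a full match was present in 11 of the 21 lower genes and 0 of the 11 others, against 0.929% of all genes. These 11 include EXPA7, EXPA18, RHS13, RHS18, RHS3 and RHS15. All RHS and expansin genes listed are in the lower set, so the choice of the genes fixes part of this contrast too. The matched genes outside that choice were LRX1, LRX2, PRP1, PRP3 and MRH6. A match describes these letters and was not tested as a binding site.

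TGA factors, which interact with the CEPD glutaredoxins, are known to bind a short TGA motif and its variants. The letters TGACG were present upstream of 15 of the 32 genes (46.9%) and of 55.2% of all genes, TACGTA upstream of 4 (12.5%) and 16.1%, and the G-box CACGTG upstream of 3 (9.38%) and 15.7%. The core of the root hair element was present upstream of 19 (59.4%) and 29.1%, and CACGTG can overlap its CACG.

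**Figure D2:**
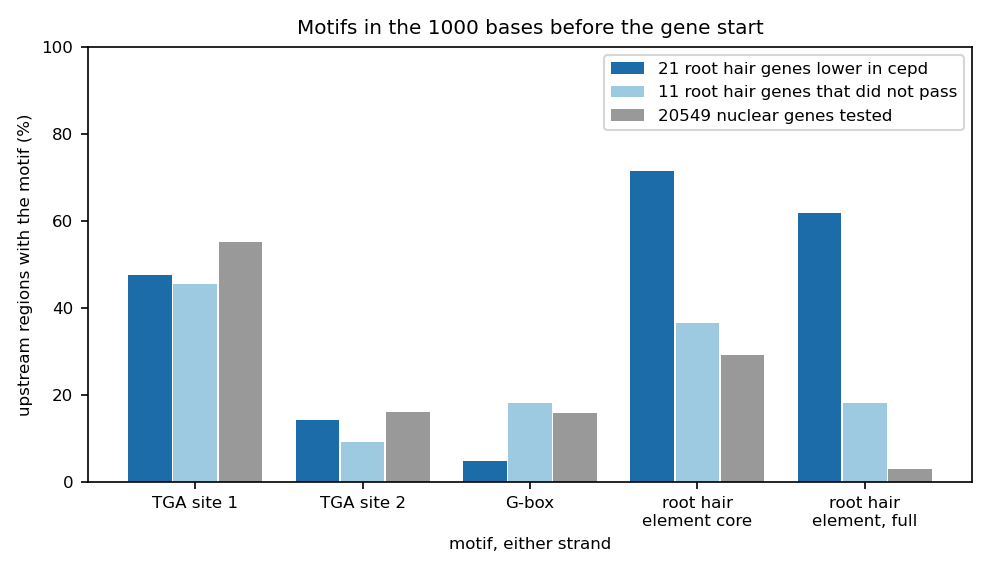
Share of upstream regions (y axis, %) of 1000 bases holding each motif on either strand, for the 21 lower genes, the 11 genes that did not pass and 20549 nuclear genes tested. TGA site 1 is TGACG, TGA site 2 is TACGTA and the G-box is CACGTG. The full root hair element was present in 61.9%, 18.2% and 2.98% of the regions.

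All wall loosening genes were lower in cepd. XTHs cut and rejoin the xyloglucan that tethers cellulose. XTH14 (AT4G25820, chr4:13130291-13131860) was the most abundant of them, with 149.6, 166 and 176 CPM in Col-0 replicates 1, 3 and 4 and 58.6, 55.7, 69.3 and 70.8 CPM in cepd replicates 1 to 4. All cepd libraries were well below Col-0, at a log2 fold change of -1.37 (standard error 0.10, adjusted p = 5.61e-05). XTH12 (AT5G57530, chr5:23300321-23301689) had 33.0, 31.0 and 39.1 CPM in Col-0 and 11.7, 12.5, 10.7 and 12.9 CPM in cepd. Its cepd libraries lay within a narrow band at 34.8% of the Col-0 mean (log2 fold change -1.53, standard error 0.10, adjusted p = 2.63e-05). XTH13 (AT5G57540, chr5:23302787-23304095) had 12.2, 11.1 and 15.5 CPM in Col-0 and 5.39, 6.08, 5.51 and 5.92 CPM in cepd. It lies next to XTH12 and encodes a close relative, so reads could be split between them, and its groups did not overlap either (log2 fold change -1.18, standard error 0.12, adjusted p = 0.000256).

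Expansins loosen the wall without cutting its polymers, and EXPA7 and EXPA18 are known as the hair cell members of their family. EXPA18 (AT1G62980, chr1:23331563-23333246) had 47.0, 53.2 and 55.0 CPM in Col-0 and 23.0, 22.8, 28.5 and 29.6 CPM in cepd. The cepd mean was 50.2% of Col-0 without overlap, and the log2 fold change of -0.99 (standard error 0.11, adjusted p = 0.000383) fell just short of -1. EXPA7 changed from 69.8 ± 7.72 CPM (SD, n = 3) to 41.3 ± 5.14 CPM (SD, n = 4), a log2 fold change of -0.76 (standard error 0.11, adjusted p = 0.00158). RHS12, a pectin methylesterase family gene, changed from 42.3 ± 1.54 to 23.7 ± 2.12 CPM (log2 fold change -0.84, standard error 0.08, adjusted p = 0.000206).

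Of the 7 structural wall and cell surface genes, 6 were lower. PRP3 (AT3G62680, chr3:23182722-23184042) encodes a proline-rich protein of the hair cell wall. It had 184, 172 and 187 CPM in Col-0 and 65.2, 55.5, 69.8 and 73.1 CPM in cepd, so that its highest cepd library was far below its lowest Col-0 library (log2 fold change -1.46, standard error 0.10, adjusted p = 2.63e-05). AGP3 (AT4G40090, chr4:18580827-18581696), an arabinogalactan protein gene, had 131, 121 and 139.5 CPM in Col-0 and 53.3, 43.9, 53.6 and 59.2 CPM in cepd. Both genotypes were tight and apart (log2 fold change -1.31, standard error 0.10, adjusted p = 6.19e-05). RHS13 (AT4G02270, chr4:992111-993039), whose product has an Ole e 1 domain, had 101, 112 and 128 CPM in Col-0 and 42.8, 41.2, 53.9 and 57.8 CPM in cepd. Here cepd replicates 1 and 2 were lower than 3 and 4, and all were below Col-0 (log2 fold change -1.22, standard error 0.13, adjusted p = 0.000338).

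LRX1 (AT1G12040, chr1:4069992-4072681) encodes a leucine-rich repeat extensin that LRX2 partly replaces when it is lost. LRX1 had 132, 125 and 103 CPM in Col-0 and 49.9, 53.2, 61.8 and 63.5 CPM in cepd. The groups were separate, at a log2 fold change of -1.07 (standard error 0.11, adjusted p = 0.00028). LRX2 had 32.05, 35.5 and 24.2 CPM in Col-0 and 23.8, 21.2, 22.7 and 24.0 CPM in cepd, with Col-0 replicate 4 barely above the highest cepd library. Its log2 fold change was -0.42 (standard error 0.12, adjusted p = 0.0399), and the call was not firm. The adjusted p was 0.0593 without Col-0 replicate 1, 0.163 without Col-0 replicate 3, 0.0716, 0.105, 0.0917 and 0.0603 without cepd replicates 1, 2, 3 and 4, and 0.0619 with the replicate block. It was 0.0525 in limma-voom and 0.201 without both cepd replicates 1 and 2, and stayed under 0.05 in the remaining settings. PRP1 changed from 15.7 ± 1.15 CPM (SD, n = 3) to 8.52 ± 1.11 CPM (SD, n = 4), a log2 fold change of -0.88 (standard error 0.11, adjusted p = 0.000661). LRX and PRP proteins hold repeats, and reads from repeats shared with relatives can be lost or split.

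CSLD3, a cellulose synthase-like protein needed for intact hair tips, was the exception among the wall genes. It had 224, 202 and 171 CPM in Col-0 and 178, 176, 173 and 169 CPM in cepd, with Col-0 replicate 4 inside the cepd range. Its log2 fold change was -0.20 (standard error 0.09, adjusted p = 0.167), with an adjusted p of 0.0476 with the replicate block and of 0.0320 without Col-0 replicate 4.

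**Figure D3:**
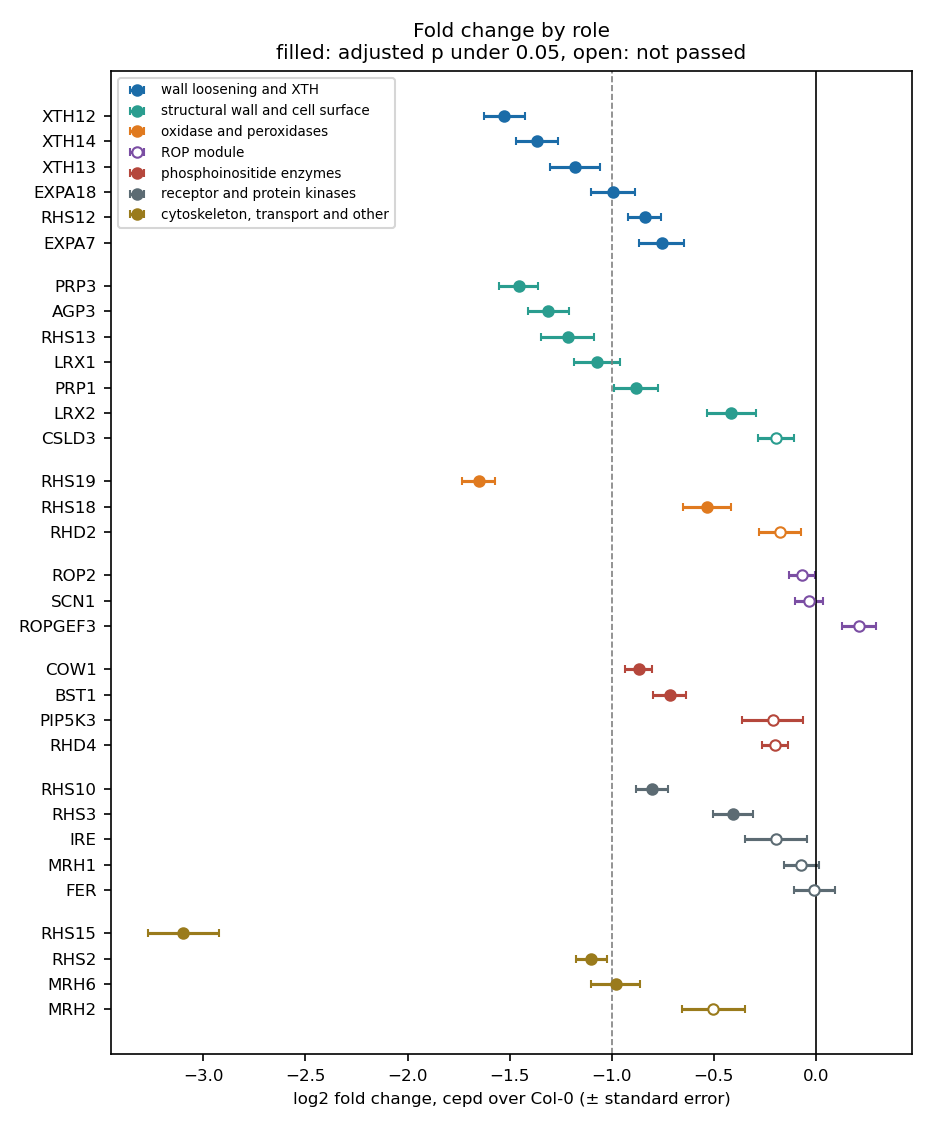
Log2 fold change of cepd over Col-0 (x axis) with its standard error for the 32 genes (y axis), coloured by role, with filled points for an adjusted p under 0.05 and a dashed line at -1. All but ROPGEF3, at 0.21, lie below 0, and RHS15 is lowest at -3.10.

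The peroxidase genes were lower, and the NADPH oxidase gene did not pass. RHS19 (AT5G67400, chr5:26894778-26896488) encodes a class III peroxidase, an enzyme class that crosslinks wall proteins or forms radicals in the wall. It had 189, 198 and 209 CPM in Col-0 and 62.9, 56.5, 69.0 and 64.5 CPM in cepd. The cepd libraries lay at 31.8% of the Col-0 mean, and the adjusted p was the smallest of the 32 genes (log2 fold change -1.65, standard error 0.08, adjusted p = 5.91e-06). RHS18, a further class III peroxidase gene, had 22.4, 20.3 and 27.2 CPM in Col-0 and 13.7, 15.9, 16.9 and 17.8 CPM in cepd. Its groups were separate by a smaller margin (log2 fold change -0.54, standard error 0.12, adjusted p = 0.0131), and the adjusted p was 0.114 without cepd replicates 1 and 2. RHD2, the NADPH oxidase RBOHC that supplies reactive oxygen at the hair tip, had 92.0, 88.4 and 68.1 CPM in Col-0 and 73.9, 72.6, 76.0 and 70.4 CPM in cepd. Col-0 replicate 4 was the lowest library of all, and the log2 fold change was -0.18 (standard error 0.10, adjusted p = 0.26), with an adjusted p of 0.0220 without that library.

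The 3 genes of the ROP module, which sets the site and direction of hair growth, did not pass. ROP2, the GTPase itself, had 88.1, 84.9 and 87.3 CPM in Col-0 and 81.8, 80.6, 80.7 and 87.3 CPM in cepd, with the groups overlapping (log2 fold change -0.07, standard error 0.06, adjusted p = 0.475). SCN1, the GDP dissociation inhibitor that confines ROP to one site, had 111 ± 7.37 CPM (SD, n = 3) and 108 ± 1.08 CPM (SD, n = 4), at a log2 fold change of -0.03 (standard error 0.07, adjusted p = 0.761). ROPGEF3, a ROP activator, had 10.1, 11.0 and 9.39 CPM in Col-0 and 11.0, 11.8, 12.1 and 12.1 CPM in cepd. It was the sole gene of the 32 with a positive value (log2 fold change 0.21, standard error 0.08, adjusted p = 0.116), and its groups touched at 11.0 CPM.

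The phosphoinositide genes were divided. COW1, a Sec14-like phosphatidylinositol transfer protein, had 48.3, 43.3 and 47.0 CPM in Col-0 and 25.0, 25.0, 26.1 and 25.2 CPM in cepd. The 4 cepd libraries were almost equal and far below Col-0 (log2 fold change -0.87, standard error 0.07, adjusted p = 5.62e-05). BST1, an inositol phosphatase family gene, was as even in cepd at 8.03 ± 0.0878 CPM (SD, n = 4), against 13.2 ± 1.09 CPM (SD, n = 3) in Col-0, a log2 fold change of -0.72 (standard error 0.08, adjusted p = 0.000441). RHD4, a phosphatidylinositol 4-phosphate phosphatase, had 144, 135 and 131 CPM in Col-0 and 119, 117, 122 and 118 CPM in cepd. Its groups did not overlap, but it did not pass (log2 fold change -0.20, standard error 0.06, adjusted p = 0.0583), with an adjusted p of 0.0243 with the replicate block and 0.00808 in DESeq2. PIP5K3, the kinase that makes phosphatidylinositol 4,5-bisphosphate at the tip, had 12.4 ± 2.56 CPM (SD, n = 3) and 10.7 ± 1.48 CPM (SD, n = 4), with overlap (log2 fold change -0.21, standard error 0.15, adjusted p = 0.36).

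Among the kinases, RHS10 (AT1G70460), a proline-rich extensin-like receptor kinase that restrains hair growth, had 45.7, 38.8 and 42.6 CPM in Col-0 and 22.6, 23.6, 25.8 and 25.0 CPM in cepd. All cepd libraries were clearly below Col-0 (log2 fold change -0.80, standard error 0.08, adjusted p = 0.000224). RHS3 (AT1G16440, RSH3 in RefSeq), an AGC kinase, was low in both genotypes, at 8.63 ± 0.443 CPM (SD, n = 3) and 6.51 ± 0.629 CPM (SD, n = 4). Its log2 fold change was -0.41 (standard error 0.10, adjusted p = 0.0203), and the adjusted p was 0.0620 without Col-0 replicate 4, 0.0572 without cepd replicate 1, 0.0506 without cepd replicate 4 and 0.106 without cepd replicates 1 and 2. FERONIA (FER), the receptor kinase for RALF peptides, had the highest CPM of the 32 genes and overlapped fully, with 289, 242 and 228 CPM in Col-0 and 276, 266, 234 and 231 CPM in cepd. Its log2 fold change was -0.01 (standard error 0.10, adjusted p = 0.968), and its sign depended on the library left out. MRH1, a receptor-like kinase, and IRE, an AGC kinase of hair elongation, had log2 fold changes of -0.07 (standard error 0.09, adjusted p = 0.608) and -0.20 (standard error 0.15, adjusted p = 0.397), each with overlap.

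RHS15 (AT4G25220, chr4:12920742-12922885), of the glycerol 3-phosphate permease family, had the lowest relative level of the 32 genes in cepd. It had 11.0, 15.3 and 13.3 CPM in Col-0 and 1.85, 1.11, 1.75 and 1.36 CPM in cepd. The cepd mean was 11.5% of Col-0, at a log2 fold change of -3.10 (standard error 0.17, adjusted p = 9.45e-06), and its lowest library still held 35 counts. RHS2 (AT1G12950, RSH2 in RefSeq, chr1:4419714-4422684), a MATE family transporter gene, had 40.7, 38.1 and 38.8 CPM in Col-0 and 17.7, 16.6, 19.8 and 19.0 CPM in cepd. Its groups were tight and separate (log2 fold change -1.10, standard error 0.08, adjusted p = 4.15e-05). MRH6, of the universal stress protein family, changed from 20.2 ± 2.57 CPM (SD, n = 3) to 10.2 ± 1.34 CPM (SD, n = 4), a log2 fold change of -0.98 (standard error 0.12, adjusted p = 0.000661). MRH2, an armadillo repeat kinesin that acts on microtubules in hairs, had 12.1, 9.23 and 8.71 CPM in Col-0 and 7.86, 8.34, 6.26 and 5.92 CPM in cepd. Its groups did not overlap, and the adjusted p was 0.0509 (log2 fold change -0.50, standard error 0.15), against 0.00125 with the replicate block, 0.0489 without cepd replicate 2, 0.0183 in DESeq2 and 0.0485 in limma-voom.

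The order of transcript levels among the genes differed between the genotypes. Levels per length, as CPM per kb of annotated exon, allow genes to be compared. In Col-0, RHS19 was first at 153 ± 7.85 CPM per kb (SD, n = 3), followed by AGP3 at 149.9 ± 10.6, PRP3 at 148 ± 6.31, XTH14 at 140.5 ± 11.4 and RHS13 at 139.9 ± 16.1 CPM per kb. These 5 neighbours differed by no more than their spread, and FER and SCN1 came next at 79.3 ± 10.1 and 78.4 ± 5.22 CPM per kb. In cepd, FER was first at 78.8 ± 7.16 CPM per kb (SD, n = 4) and SCN1 second at 76.5 ± 0.765, also within their spread of each other. AGP3, RHS13 and ROP2 followed at 60.4 ± 7.28, 60.2 ± 10.1 and 60.1 ± 2.31 CPM per kb, likewise not separable, and RHS19 was 8th at 48.8 ± 3.99 CPM per kb. RHS15 ranked 26th in Col-0, at 6.81 ± 1.12 CPM per kb, and last in cepd, at 0.785 ± 0.177 CPM per kb.

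**Figure D4:**
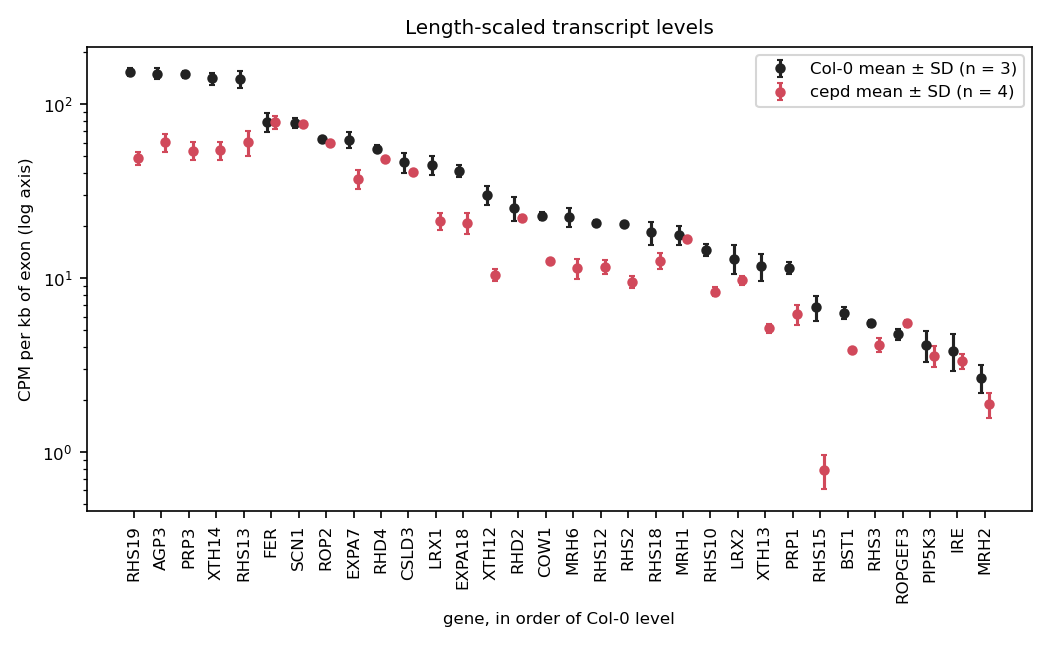
Mean CPM per kb of annotated exon (y axis, log scale) with SD for the 32 genes (x axis, ordered by the Col-0 level), in Col-0 (black, n = 3) and cepd (red, n = 4). The 5 genes that lead in Col-0, at 139.9 to 153 CPM per kb, lie at 48.8 to 60.4 CPM per kb in cepd, whereas FER and SCN1 coincide.

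Related genes did not move by equal amounts. The log2 ratio of their counts within a library was compared between genotypes for 6 pairs by a two-sided exact permutation test, in which 0.0286 is the smallest p that the 35 assignments of genotype to libraries allow (0.0343 after adjustment over the pairs). This test does not use the pairing of libraries by experiment, with which 3 pairs could not give a two-sided exact p below 0.25. RHS19 over RHS18 changed from 3.10 ± 0.17 (SD, n = 3) in Col-0 to 1.98 ± 0.17 (SD, n = 4) in cepd, a difference of -1.12 (exact p = 0.0286). LRX2 over LRX1 changed from -1.98 ± 0.15 to -1.31 ± 0.17, a difference of 0.67 (exact p = 0.0286), so the fall of LRX1 exceeded that of LRX2. PRP3 over PRP1 differed by -0.57, XTH13 over XTH12 by 0.36 and EXPA18 over EXPA7 by -0.24 (exact p = 0.0286 each), and in all 5 pairs the ratios of the genotypes did not overlap. XTH14 over XTH12 differed by 0.15 with overlap (exact p = 0.4, adjusted p = 0.4). In 4 of these 5 pairs the gene with more counts had the larger fall, and the exception was EXPA18, which had fewer counts than EXPA7.

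The 21 lower genes did not lie equally low in all cepd libraries. Their median log2 level relative to the Col-0 mean was -0.06, -0.04 and 0.08 in Col-0 replicates 1, 3 and 4. In cepd it was -1.17 and -1.10 in replicates 1 and 2 and -0.88 and -0.92 in replicates 3 and 4. The share of counts from organelle genes was 0.1457% and 0.1564% in cepd replicates 1 and 2, 0.0736% and 0.0553% in cepd replicates 3 and 4, and 0.0312 to 0.0392% in Col-0. Without cepd replicates 1 and 2, a fit added after the data were seen, 19 of the 32 genes were lower, against 726 of 20771 genes tested. For the 11 genes that did not pass, the medians were 0.17, -0.03 and -0.17 in Col-0 and -0.06, -0.11, -0.12 and -0.22 in cepd. These medians differed as much among Col-0 libraries as between genotypes, although RHD4 and MRH2 had every cepd library below every Col-0 library.

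Markers of other cells were examined beside these results. Of 7 leaf markers 4 were higher in cepd, against 9.64% of all genes. The summed level of the 7 was 76.6 to 102 CPM in Col-0 and 176 to 228 CPM in cepd, and none was at 0. The study set aside a further Col-0 sample because it held leaf tissue. All the leaf markers are photosynthesis genes, and the study reported photosynthesis as an enriched term among genes higher in cepd roots on LN. Whether the rise of these markers came with leaf tissue or with the genotype was not tested. Of 5 stele markers 3 were higher, also against 9.64% of all genes. The summed level of the 5 was 392 to 478 CPM in Col-0 and 509 to 677 CPM in cepd. Of 15 markers of endodermis, cortex, root cap and meristem none passed in edgeR, with 3 lower and 0 higher at an unadjusted p under 0.05, 1 lower in DESeq2 and 0 in limma-voom. The part of these markers and of the organelle share in the root hair results was not tested.

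Other listed genes of the same pathway, also chosen with earlier results of these data known, were compared in the same fit. Of 37 other root hair growth genes 35 were tested. Of these, 21 were lower and 1 was higher, against 8.3% and 9.64% of all genes, with a median log2 fold change of -0.53. RHS14, a pectate lyase family gene, had a log2 fold change of -1.28 (adjusted p = 3.16e-05), the extensin genes EXT6 and EXT10 had -1.74 (adjusted p = 6.68e-05) and -1.80 (adjusted p = 0.000123), and the peroxidase gene PRX7 had -0.93 (adjusted p = 0.000141). The 1 higher gene, ROP6, changed from 23.7 ± 1.16 to 28.1 ± 0.305 CPM (log2 fold change 0.24, adjusted p = 0.0284), with an adjusted p of 0.0589 without Col-0 replicate 1, 0.0992 without Col-0 replicate 3 and 0.0615 to 0.0788 without each cepd replicate. ROPGEF10, a ROP activator named here after its values were seen, had 5.76, 4.43 and 4.99 CPM in Col-0 and 2.06, 2.64, 1.90 and 2.54 CPM in cepd. It was lower, with no overlap (log2 fold change -1.15, standard error 0.15, adjusted p = 0.00099).

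Upstream of the effectors, 5 of the 8 root hair bHLH factors tested were lower, against 8.3% of all genes. They too were listed with earlier results of these data known. The ninth listed, RSL5, was too low to be tested. RSL3 had a log2 fold change of -2.22 (adjusted p = 5.61e-05), RHD6 of -1.09 (adjusted p = 0.000244), RSL2 of -0.75 (adjusted p = 0.00318) and LRL3 of -0.54 (adjusted p = 0.00661). The fifth, RSL1, overlapped between genotypes and lay at the threshold (log2 fold change -0.57, adjusted p = 0.04997), with an adjusted p of 0.0988 without Col-0 replicate 1, 0.125 without Col-0 replicate 4, and 0.110, 0.116 and 0.0841 without cepd replicates 1, 3 and 4. RSL4 and LRL1 did not pass and overlapped, with log2 fold changes of -0.18 (adjusted p = 0.395) and 0.04 (adjusted p = 0.820). LRL2 did not overlap but did not pass (log2 fold change -0.20, adjusted p = 0.127). Of 9 patterning genes tested out of 10 listed (GL1 was at 0 in every library), which divide the epidermis into hair and non-hair cells, 0 were called by edgeR, DESeq2 or limma-voom, with 1 lower at an unadjusted p under 0.05. GL3, EGL3, SCM and WER had log2 fold changes of -0.35, 0.18, 0.21 and 0.11. The adjusted p of GL3 was 0.123, against 0.0163 with the replicate block, and that of SCM was 0.245, against 0.0302 without Col-0 replicate 1.

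**Figure D5:**
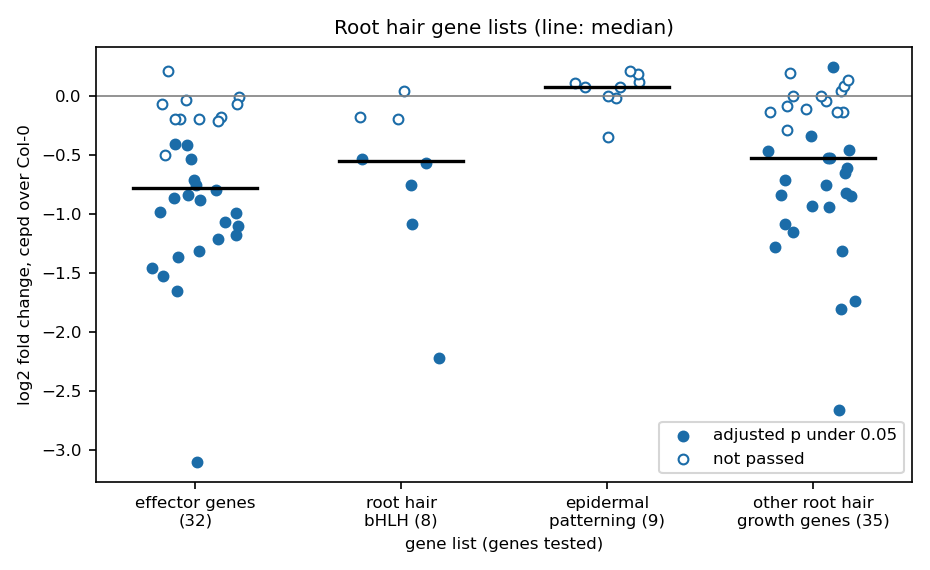
Log2 fold change of cepd over Col-0 (y axis) of each tested gene of the 4 root hair lists (x axis), with filled points for an adjusted p under 0.05 and a line at the median. The medians are -0.78 for the effector genes, -0.56 for the bHLH factors, 0.07 for the patterning genes and -0.53 for the other growth genes.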

How the data were processed

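RNA from roots on LN was sequenced by the authors with unstranded TruSeq v2 libraries. For each of the 7 libraries the authors deposited the raw count of every gene. The submitters' processing notes name CASAVA 1.8.2, STAR 2.5.2b-2, HTSeq 0.9.1, DESeq2 2.11.40.6 and the TAIR10 build. The annotation release and the strand setting of the counting are not given in the sources used here, so reads of overlapping or antisense genes cannot be told apart.

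Counts were tested in R 4.3.3 with edgeR 4.0.16 (robust quasi-likelihood test, TMM, filterByExpr with minimum count 10 and minimum total 15, leaving 20600 genes), with Benjamini-Hochberg adjustment over all of them. The standard error was taken as the size of the log2 fold change over the root of its F statistic. Alternatives were DESeq2 1.42.0, limma-voom (limma 3.58.1), DESeq2 size factors, no filter, a CPM of at least 1 in at least 3 libraries, nuclear genes only, a replicate block and leaving out each library. Lengths and upstream sequences came from the RefSeq annotation of TAIR10.1, whose 5 nuclear chromosomes were used.

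Replicate numbers are read as the numbers of the independent experiments. Deviations of same-numbered libraries from their genotype means correlated at 0.435, 0.189 and 0.274 for replicates 1, 3 and 4. All were above 0.1, the minimum set for reading the numbers as pairs. The main edgeR fit and the permutation test did not use this pairing, and only the fits with the replicate block did. Among differently numbered pairs of a Col-0 and a cepd library, those of replicates 1 and 2 (0.136), 4 and 3 (0.135) and 3 and 4 (0.192) were also above 0.1. The last exceeded the same-numbered value of replicate 3 (0.189), so these correlations do not settle the pairing.

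The 32 genes and all other lists were chosen with earlier results of these data known. Values per library were given for genes with an absolute log2 fold change over 1 and for the gene with the smallest adjusted p in each role, and of other lists up to 4 genes with the smallest adjusted p and any against the direction of most. Other values were chosen after they were seen.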

Additional observations from a re-analysis of the deposited data

Results flagged for a closer look

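In 86 root hair genes examined, 2 had a cepd library set apart, judged by its gap to the nearest library over the range of the 4. The gap in level itself can be small. Chance alone flags about 1 in 20 such groups. RHS9 had its lowest cepd level, 8.85 CPM, in replicate 1, against 11.2 CPM in the nearest library. SHV3 had its lowest cepd level, 105.8 CPM, in replicate 2, against 109.8 CPM in the nearest library. Neither belongs to the 32 effector genes.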

How the results depend on the processing

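Of the 480 values of the 32 effector genes under other settings, 448 kept their direction and their side of the threshold, 14 (of LRX2, RHS18 and RHS3) lost the call, 13 (of CSLD3, RHD2, RHD4 and MRH2) gained it and 5 (of FER, SCN1 and MRH1, none of them called) changed sign. Leaving out single libraries gave log2 fold changes of -0.0768 to 0.0954 for FER, -0.0870 to 0.00799 for SCN1 and -0.150 to 0.0268 for MRH1. Of the 21 lower genes, 19 kept the call under all listed settings other than the one without cepd replicates 1 and 2, the exceptions being LRX2 and RHS3. The replicate block made 1 patterning gene lower, GL3, and left 23 of the 32 effector genes lower, changing the calls of LRX2, CSLD3, RHD4 and MRH2 and of no other effector gene. Leaving out single libraries gave 0 to 1 higher patterning genes and 0 to 1 higher genes among the other growth genes. Without cepd replicates 1 and 2, 3 bHLH factors were lower and 0 other growth genes were higher, with fewer samples. Over all genes, 1710 lower and 1986 higher genes became 2727 and 2866 with the replicate block, 2591 and 2597 without Col-0 replicate 1, 998 and 1167 without Col-0 replicate 3, 1127 and 1346 without cepd replicate 2, and 726 and 784 without cepd replicates 1 and 2. On the given strand alone, 7 of the 32 upstream regions held TGACG and 11 the core of the root hair element. In 300 bases, 7 held TGACG, 1 TACGTA and 0 CACGTG. The depth left 35 counts or more for each gene in each library. These p-values measure the spread between pooled samples of independent experiments.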
